A study of Mus musculus with 8 samples.

Results

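The genes described here encode histone lysine methyltransferases and demethylases. They are the 47 autosomal genes with a curated RefSeq mRNA whose symbols start with Kmt, Kdm, Setd, Nsd, Smyd or Suv, together with Ezh1, Ezh2, Ehmt2, Setmar and Ash1l, out of 20021 autosomal genes with such an mRNA. The rule used symbols only and no measured value, though earlier results of these data were known when it was set. It leaves out Dot1l and Ehmt1 by name, and 5 genes on the X and Y chromosomes (Kdm5c, Kdm5d, Kdm6a, Nsdhl and Suv39h1). Of these, Nsdhl is no histone enzyme and matches by the letters of its symbol only. Of the 47 members, 32 have methyltransferase names and 15 have Kdm names.

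ATAC-seq, in which a transposase cuts open chromatin and leaves sequencing adapters there, was performed on nuclei of brown adipose tissue (BAT), with a library for each of 4 mice, of which 2 were WT and 2 Dot1L-BKO. The WT mice were Dot1l f/f animals, and the Dot1L-BKO mice carried the same floxed Dot1l with Ucp1-Cre, which deletes Dot1l in Ucp1+ cells only. Both groups were 12 weeks old, ate chow and spent 4 hr at 4°C before BAT was taken. The nuclei came from whole tissue, so that adipocytes and the other cells of BAT cannot be told apart. The deposited values are a single list of 32173 peak summits (31729 on autosomes) made with all 4 libraries. Its name sets WT against Dot1L-BKO, and whether the Dot1L-BKO reads served as the control of the peak calls is not stated. If they did, a score would be an excess of WT over Dot1L-BKO reads, and a site equally open in both genotypes could have a low score or be missing from the list. All scores and missing summits below are to be read with this limit. Every summit carries a score, its q-value in the MACS2 peak call written as −log10, and the median score of the list was 5.0. The list has no value per mouse. Read depth is therefore unknown, no replicate error can be given, and no comparison of the genotypes was possible. All 6 of the brown fat genes checked (Ucp1, Cidea, Ppargc1a, Prdm16, Pparg and Elovl3) had a summit within 1 kb of a transcription start site (TSS).

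Lysine methyltransferases place methyl groups on histone tails, and most of them carry a catalytic SET domain. Demethylases remove these groups, either with a flavin-dependent amine oxidase (Kdm1a and Kdm1b) or with a JmjC domain (the other Kdm families). Methylation of H3K4 and H3K36 is typical of transcribed genes, and trimethylation of H3K9, H3K27 and H4K20 of silent chromatin. In brown fat, Kdm1a, Kdm3a and the non-member Ehmt1 are known regulators of the thermogenic gene program. Dot1l, the gene deleted in this model, methylates H3K79 without a SET domain.

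The sequences of 6 promoter summits are printed to show what lies under a peak at genes of differing strength, from the highest score among all members to one of the lower ones. They were taken from the members with the 10 highest scores and from a list of members with a link to brown fat (Kdm1a, Kdm3a, Kdm6b, Ezh2, Ehmt2, Kmt5b, Kmt5c, Kmt2c, Kmt2d and Setd2), where the window touched no annotated mRNA exon and the gene was in the RefSeq promoter table (GRCm38.p6), which holds 34 of the 47 members. Each window has the summit and 50 bases of mm10 on either side, 5′ to 3′ on the strand of the gene. Capitals mark any of 9 short motifs searched on both strands. The Kmt5c window (chr7:4739840-4739940, plus strand), the Setd2 window (chr9:110532245-110532345, plus) and the Ehmt2 window (chr17:34898187-34898287, plus) held 1 or 2 motifs each, as did that of Kmt5b (chr19:3768657-3768757, plus), which lies in an intron. The Kdm3a window (chr6:71633089-71633189, minus) and the Kmt2c window (chr5:25499355-25499455, minus) held none.
Kmt5c: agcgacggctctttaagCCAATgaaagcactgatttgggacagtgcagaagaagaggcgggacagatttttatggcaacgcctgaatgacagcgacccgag
Kdm3a: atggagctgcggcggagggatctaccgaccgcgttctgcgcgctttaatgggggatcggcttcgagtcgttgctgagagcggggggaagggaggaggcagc
Setd2: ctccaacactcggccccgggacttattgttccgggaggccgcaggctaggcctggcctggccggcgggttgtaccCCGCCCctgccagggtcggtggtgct
Kmt2c: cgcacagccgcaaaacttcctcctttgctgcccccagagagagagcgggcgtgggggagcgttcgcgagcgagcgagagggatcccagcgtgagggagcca
Kmt5b: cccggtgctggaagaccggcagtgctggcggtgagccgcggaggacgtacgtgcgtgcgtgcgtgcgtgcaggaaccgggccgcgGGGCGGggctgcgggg
Ehmt2: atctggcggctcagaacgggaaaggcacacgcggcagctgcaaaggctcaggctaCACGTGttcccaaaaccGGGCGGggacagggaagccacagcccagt
The window of Kmt5c has a GC content of 51.5% and 6 CpG dinucleotides, and that of Kmt5b 77.2% and 16. The score was 94.9 at Kmt5c and 6.53 at Kmt5b.

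For contrast, the bases just upstream of the first annotated TSS are printed, in windows of the same length, for 3 members with no summit within 1 kb, chosen after their values were seen. They lie at chr4:136602788-136602888 (Kdm1a), chr3:95357203-95357303 (Setdb1) and chr6:71262282-71262382 (Smyd1), all on the minus strand.
Kdm1a: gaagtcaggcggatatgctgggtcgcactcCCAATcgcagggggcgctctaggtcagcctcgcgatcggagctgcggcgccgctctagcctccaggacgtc
Setdb1: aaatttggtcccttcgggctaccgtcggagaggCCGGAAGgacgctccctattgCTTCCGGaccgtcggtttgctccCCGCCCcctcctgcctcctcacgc
Smyd1: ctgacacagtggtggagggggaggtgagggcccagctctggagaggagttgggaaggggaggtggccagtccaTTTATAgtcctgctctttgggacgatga
The windows of Kdm1a and Setdb1 have 11 and 10 CpG dinucleotides, where the windows of Kdm3a and Kmt5c have 11 and 6. The window of Smyd1, a muscle gene, has 1 CpG and the letters TATAAA on the opposite strand.

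Most members had a summit at a promoter. Of the 47 genes, 38 (80.9%, 95% Wilson interval 67.5% to 89.6%) had a summit within 1 kb of a TSS, called a promoter summit below, against 46.8% of all autosomal genes. The interval covers counting error only, and no test between gene lists was made. With a score of at least 10, 21 members (44.7%) had a promoter summit, against 24.5% of all genes, and with a score of at least 20, 13 members (27.7%) had one, against 12.4%. More than 1 promoter summit was found at 10 members (21.3%), against 8.45% of all genes. Among genes with a promoter summit, the highest score had a median of 12.2 in the members (95% binomial interval of the median 8.65 to 21.8) and of 10.9 in all genes, so that the members' interval included the value of all genes. A summit within 10 kb of a TSS was found at 42 members (89.4%), against 55.8% of all genes, and 2 or more at 24 members (51.1%), against 27.4%. The bar plot of shares shows these values side by side.

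**Figure D1:**
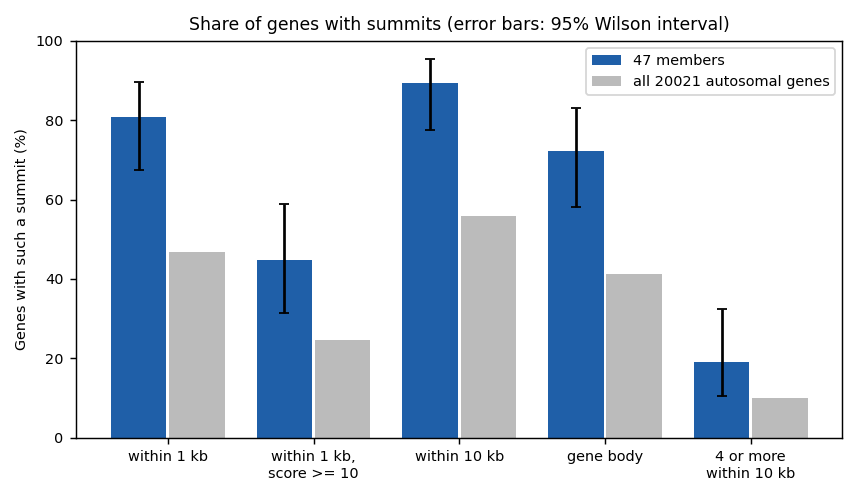
Share of genes (%) with a summit of each kind among the 47 members (blue bars, with 95% Wilson intervals) and among all 20021 autosomal genes with a curated RefSeq mRNA (grey bars). The share of members is above that of all genes for each of the 5 kinds, at 80.9% against 46.8% within 1 kb of a TSS.

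The bases around the TSS also differed between the members and all genes. In the 500 bp on each side of the TSS (for genes with several, the one with the highest GC content), GC content had a median of 65.7% in the members and 56.6% in all genes, and the ratio of observed to expected CpG had medians of 0.814 and 0.620. Of the 39 members with a GC content of at least 55%, 35 (89.7%) had a promoter summit, against 67.7% of all genes in that range. Of the 8 members under 55%, 3 (37.5%) had one, against 19.3% of all genes there. The part of base composition in the members' share was not tested.

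Related genes were counted in 7 lists. Of their 49 autosomal genes, for complex subunits, readers, other lysine methyltransferases, other JmjC proteins and arginine methyltransferases, 40 (81.6%) had a promoter summit, against the 46.8% of all genes, and the share differed from list to list. All 8 listed PRC2 subunits on autosomes had a promoter summit, Eed and Suz12 included, although the member Ezh1 did not. Of the COMPASS and MLL subunits 7 of 9 had one, the exceptions being Ncoa6 and Rbbp5. Of 5 genes of the LSD1 complex 4 had one, with Rcor1 at a score of 15.4, and all 6 readers and cofactors of H3K9 methylation had one. Of 9 arginine methyltransferases 8 had one, and Prmt8 did not. Of the other JmjC proteins 3 of 6 had one, and of the other lysine methyltransferases 4 of 6, with Prdm9 highest at 34.2 (-87 bp). Dot1l itself had a promoter summit at -160 bp with a score of 10.9, and the summit of Ehmt1, 684 bp downstream of a TSS, had 3.75.

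**Figure D2:**
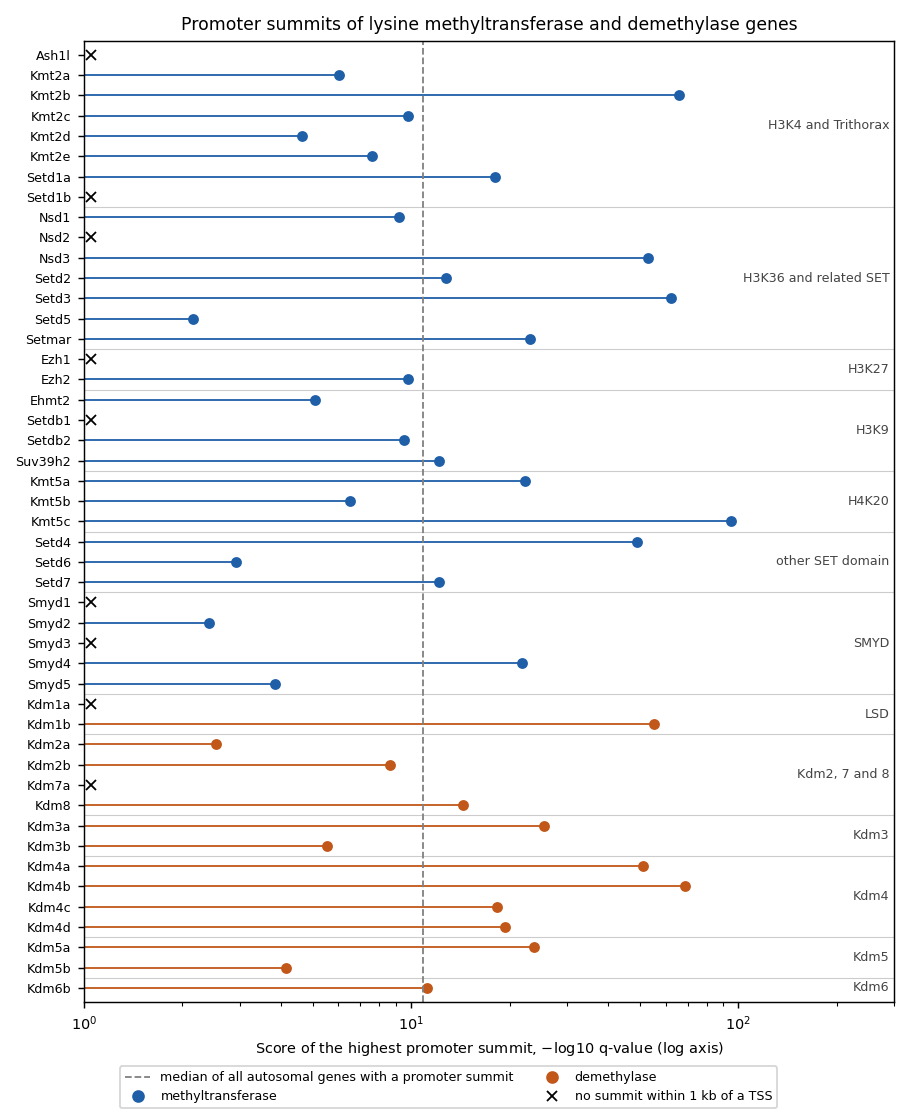
Score (−log10 q-value, log axis) of the highest summit within 1 kb of a TSS for each of the 47 members, grouped by substrate or family, with methyltransferases in blue and demethylases in orange. The 9 members marked with a cross had no such summit, and the dashed line is the median of all autosomal genes with a promoter summit (10.9). Kmt5c lies farthest right at 94.9.

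The H3K4 and Trithorax group held strong, weak and absent promoter summits. Of its 8 genes, 6 had a promoter summit. Kmt2b (chr7:30568855-30588726, minus strand) encodes an H3K4 methyltransferase of the MLL family. Its summit at -329 bp scored 65.8 and took rank 241 in the whole list. Setd1a, the catalytic subunit of a COMPASS complex, followed with 18.1 at -394 bp. Kmt2c and Kmt2d, which place H3K4 monomethylation at enhancers, had 9.78 at -622 bp and 4.64 at 79 bp downstream of the TSS. Kmt2a, the gene fused to other genes in MLL leukemia, had 3 promoter summits, all with low scores (6.02, 4.16 and 2.53). Kmt2e, whose SET domain is thought to have little enzymatic activity, had 7.58 at 560 bp downstream. Setd1b and Ash1l had none.

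Of the 7 genes in the H3K36 and related SET group, 6 had a promoter summit (85.7%). Setd3, now known as an actin histidine methyltransferase, had 62.5 at -222 bp and ranked 285. Nsd3, an enzyme of H3K36 dimethylation (chr8:25601601-25719667, plus strand), had 52.8 in the 5′ UTR at 219 bp downstream of a TSS. Setmar had 23.1, Setd2, the main enzyme of H3K36 trimethylation, had 12.8 at -302 bp, and Nsd1 had 9.21. Setd5 had 2.15 at 418 bp downstream, the lowest among the members when each is taken by its highest promoter summit. Nsd2 had no promoter summit at its curated TSS.

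Among the enzymes of H3K27, H3K9 and H4K20 methylation, Kmt5c and Kmt5a had the highest scores. Ezh2, the catalytic subunit of PRC2, had 9.78 at -105 bp, and its paralog Ezh1, which is found in resting cells, had no summit nearer than -5058 bp (score 2.15). In the H3K9 group 3 of 4 genes had a promoter summit. Suv39h2 had 12.2 at -76 bp, Setdb2 9.50 at -23 bp and Ehmt2, the partner of Ehmt1, 5.07 at -237 bp. Setdb1 had none. All 3 genes of the H4K20 group had a promoter summit. Kmt5c (chr7:4740127-4747514, plus strand), which adds the second and further methyl groups to H4K20, had the highest score of all members, with 94.9 at -237 bp and a rank of 66. Kmt5a, which adds the first methyl group to H4K20, had 22.3 at -10 bp. Kmt5b, the paralog of Kmt5c, had 6.53 at 818 bp downstream of its second TSS, and 1.71 at -320 bp from its first, which lies 468 bp before the second. The highest promoter scores of Kmt5b and Kmt5c, whose enzymes share a substrate, thus stood far apart.

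The other SET domain genes all had a promoter summit, with 49 at Setd4, 12.2 at Setd7 and 2.92 at Setd6, a methyltransferase of RelA. Of the 5 SMYD genes 3 had one. Smyd4 had 21.8 at 98 bp downstream of its TSS, while Smyd5 (3.83) and Smyd2 (2.42), a methyltransferase of p53, were below the lower quartile of the members (6.15). Smyd1, which is specific to striated muscle, and Smyd3 had none.

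Of the 15 demethylase genes 13 had a promoter summit (86.7%, Wilson interval 62.1% to 96.3%), and of the 32 methyltransferase genes 25 did (78.1%, 61.2% to 89.0%). The intervals overlap, and the difference was not tested. The median highest score was 18.3 in the demethylases and 9.78 in the methyltransferases. All 4 autosomal Kdm4 genes, which encode demethylases of H3K9 and, for Kdm4a to Kdm4c, also of H3K36, had a promoter summit with a score over 10. Kdm4b (chr17:56326050-56403774, plus strand) had 68.5 at -310 bp and ranked 201. Kdm4a had 51.0 in its 5′ UTR at 131 bp downstream, Kdm4d 19.4 and Kdm4c 18.3.

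Kdm3a, an H3K9 demethylase needed for thermogenic gene expression, had 25.4 at -222 bp, and its paralog Kdm3b had 5.55 at -192 bp. Kdm5a and Kdm5b remove methyl groups from H3K4 and had 23.8 at -218 bp and 4.16 at 347 bp downstream. Kdm8 had 14.4, Kdm2b 8.65 and Kdm2a 2.53. Kdm6b, which removes methyl groups from H3K27, had 11.2 at 902 bp and 4.61 at 460 bp downstream of its TSS. The 2 flavin-dependent demethylases differed. Kdm1b had 55.3 at -135 bp and ranked 424, and Kdm1a had no summit within 10 kb of its TSS or in its gene body.

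The 9 members without a promoter summit were of different kinds. Kdm1a (chr4:136550533-136602723, minus strand) had its closest summit at -95495 bp (score 4.04). Setdb1 (chr3:95323525-95357202, minus strand), an enzyme of H3K9 trimethylation, had its closest 38483 bp downstream of the TSS (score 2.01), beyond the end of the gene. Their GC contents around the TSS were 65.9% and 52.2%, and their CpG ratios 0.96 and 0.838. Smyd3, the longest member at 566 kb, had its closest summit at -28308 bp. The closest summit of Smyd1, at -9249 bp, lay nearest the TSS of another gene, Krcc1.

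At 2 of the 9 genes a summit lay just beyond the window. Kdm7a, a demethylase of H3K9 and H3K27, had a summit at 1413 bp downstream of its TSS in intron 1 (score 7.05). Setd1b had a summit at 1233 bp in exon 3 (2.15) and a stronger one at -3116 bp (12.8).

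At 2 others the curated mRNA started at an AT-rich position, and RefSeq also predicts a transcript that starts far from it. Ash1l, an H3K36 methyltransferase of the Trithorax group, had a GC content of 40.2% around its curated TSS and no summit within 10 kb of it. The predicted mRNAs of Ash1l have 4 distinct starts, of which the one closest to any summit was taken. It lies at -14913 bp from the curated TSS, and a summit with a score of 8.65 lay 97 bp downstream of it. Since the start was chosen by its summit, their nearness is no independent match. Nsd2, an enzyme of H3K36 dimethylation, had a GC content of 39.1% at its curated TSS. Of the 5 distinct starts of its predicted mRNAs, the one chosen in the same way lies at -22436 bp from the curated TSS. A summit with a score of 5.07 lay at -947 bp from that start. With predicted mRNAs added, 40 of the 47 members had a promoter summit, against 48.2% of all genes, and Ash1l and Nsd2 were the genes gained.

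Some members have several curated start sites, and summits were found at only some of these. The 47 members have 61 distinct TSSs, of which 46 (75.4%) had a summit within 1 kb, against 44.9% of the 24860 autosomal TSSs. Of the 9 members with more than 1 TSS, 5 (55.6%) had TSSs over 2 kb apart with a summit at some and not at others, against 21.9% of the 3469 autosomal genes with more than 1 TSS. Kdm2b, an H3K36 demethylase that also recruits a Polycomb complex to CpG islands, was the clearest case. Its 2 upstream TSSs, at 122989099 and 122988507 on chromosome 5, had their closest summit at -25819 and -26411 bp. Its 2 downstream TSSs, 88732 and 88749 bp farther along the gene, shared a summit at 122900697 with a score of 8.65, which lies at -330 bp and -347 bp from them and in intron 12 of the longer transcripts. Kdm4c had its summit at the TSS that lies 9382 bp downstream of its first TSS, and none within 1 kb of the first. Nsd3, Kdm3a and Setd5 were the other way round, with a summit at the first TSS and none at a TSS 38976, 23778 and 27296 bp farther downstream. At Kmt5a, all 3 TSSs had a summit within 1 kb, with 22.3 at the first and at most 4.61 at the others.

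**Figure D3:**
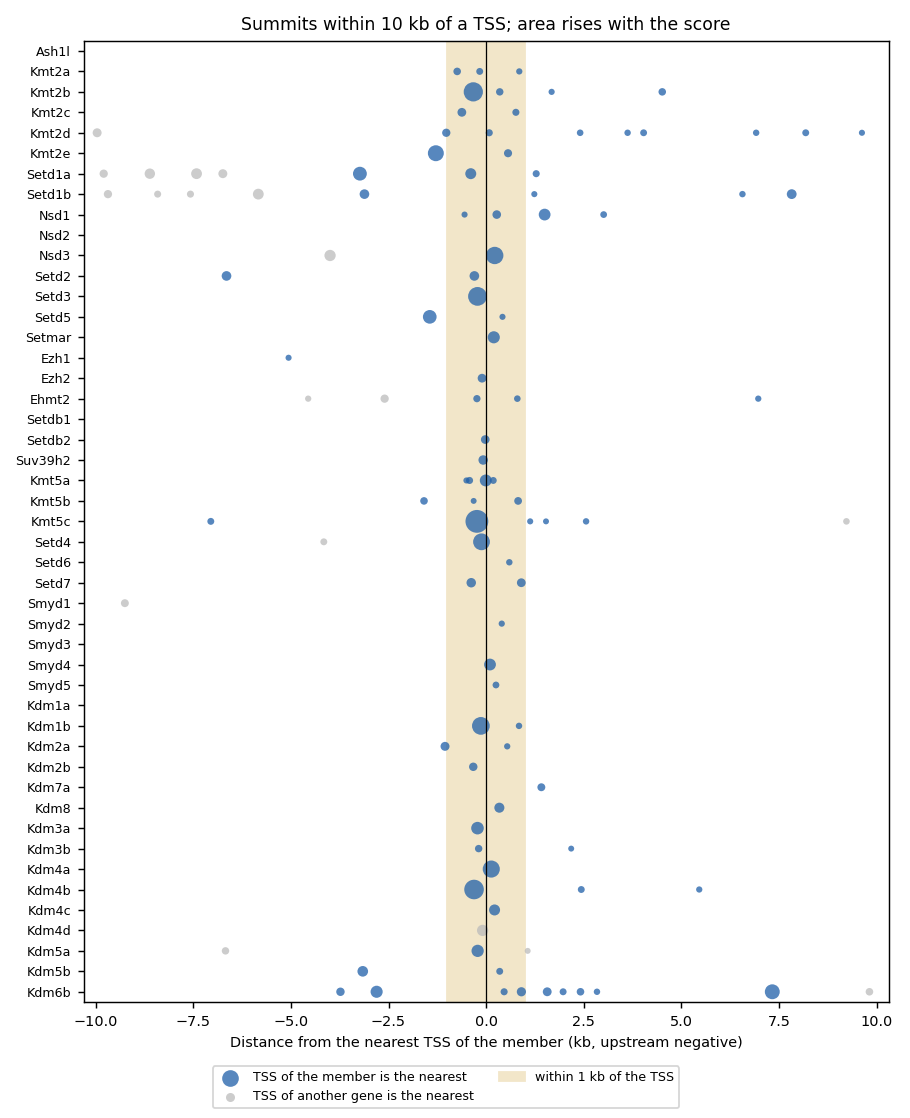
Summits within 10 kb of a TSS of each of the 47 members, by distance from the nearest TSS of the member (kb, upstream negative). The area of a point rises with its score; blue points have a TSS of the member as the nearest and grey points that of another gene. Of the 109 points, 90 are blue; Kdm6b has 10 points and Kdm1a none.

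The promoter summits of members lay at a larger median distance from the TSS than those of all genes. The nearest promoter summit was at a median distance of 237 bp (95% binomial interval of the median 195 to 329 bp) in the 38 members and of 137 bp in the 9371 genes with a promoter summit. Only 6 of the 38 members (15.8%) had it within 100 bp of the TSS, namely Kmt5a, Setdb2, Suv39h2, Kmt2d, Kdm4d and Smyd4, against 39.4% of all genes with a promoter summit. It lay upstream of the TSS at 22 members (57.9%) and at 57.2% of all such genes. Kmt2c (-622 bp), Setd6 (593 bp downstream), Kmt2e (560 bp) and Kdm2a (539 bp) had the largest distances. With predicted mRNAs added, which place more start sites, the medians were 180 bp and 110 bp.

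**Figure D4:**
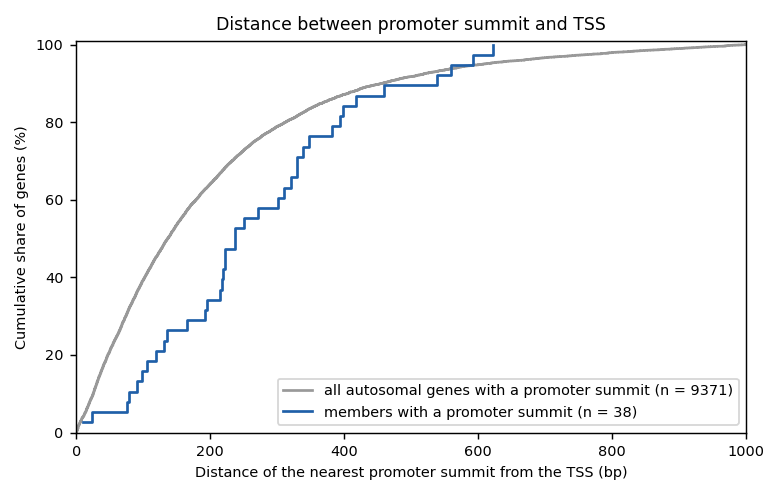
Cumulative share of genes (%) by the distance (bp) of the nearest promoter summit from the TSS, for the 38 members with a promoter summit (blue) and all 9371 autosomal genes with one (grey). The blue curve lies below the grey one through its lower quartile, median and upper quartile, with medians of 237 and 137 bp.

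The strongest summit of a member was not always the one at its promoter. Of 37 members with a promoter summit nearest to a TSS of their own, 9 (24.3%) had a higher score outside 1 kb but within 10 kb, also nearest to their own TSS, against 9.08% of all such genes. At Kmt2e a summit at -1288 bp had a score of 43.7, where the promoter summit had 7.58. At Setd5 a summit at -1444 bp had 30.9, where the promoter summit had 2.15. At Setd1a a summit at -3232 bp had 31.7, at Nsd1 a summit 1497 bp downstream in intron 1 had 21.6, and at Kdm5b a summit at -3159 bp had 16.7. Kdm2a (10.4 at -1053 bp) and Kmt2d (8.12 at -1021 bp) had theirs just beyond the window, and Setd2 had 12.9 at -6647 bp, which is close to the 12.8 at its promoter. For Setd5, Kdm2a and Kmt2e the low promoter score thus stood beside a stronger summit upstream.

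Kdm6b had the densest set of summits. This gene, also known as Jmjd3, spans 17.7 kb (chr11:69398508-69416194, minus strand). It held 11 summits in its body, or 6.22 per 10 kb, the most of any member. The strongest, at 69408869 in intron 2 and 7325 bp downstream of the TSS, had a score of 37.6, and the next within the body, at 69401414 in intron 18, had 15.4. There were 2 more upstream, at -2804 bp (23.1) and -3730 bp (8.65). Of the 11 summits in the body, 4 lay nearest the TSS of the neighbouring gene Tmem88. Its CpG ratio of 0.327 around the TSS was the lowest among members with a promoter summit.

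Kmt2d held 10 summits in a body of 39.5 kb, and all were weak, with scores from 2.15 to 4.64. They lay in the 5′ UTR, in introns, in coding exons 11 and 35 and in the 3′ UTR. Kdm4b held 9 summits in its body, with scores from 1.87 to 8.65, of which 5 lay in intron 1. The much higher promoter summit of Kdm4b (68.5) lay upstream and is not among them. Smyd3 held 4 summits, and 3 of these lay between 471540 and 476342 bp from its TSS, with scores of 20.2, 5.55 and 4.04. Kdm2b held 4, with the summit at its downstream TSSs as the strongest.

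Within 10 kb of a TSS, 9 members (19.1%) had 4 or more summits, against 9.88% of all genes. Kdm6b had 10 and Kmt2d 9. Setd1b had 8 and Setd1a 7, but at these genes many lay nearest another TSS. Of the 8 at Setd1b, 4 lay nearest Rhof, and of the 7 at Setd1a, 4 lay nearest Orai3. Kmt5c had 6, of which none but the promoter summit had a score above 4.19. Ezh2, Kdm3a, Kdm4a, Kdm4c and Suv39h2, in contrast, had 1 summit within 10 kb, at the promoter.

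A summit lay in the gene body of 34 members (72.3%), against 41.2% of all genes. The median span was 48.3 kb in the members and 16.9 kb in all genes, and the part of length in this share was not tested. The median number of summits in the body was 1 in the members under 20 kb, as in those from 20 to 50 kb and from 50 to 100 kb, and 0, 0 and 1 in all genes of these lengths. In genes of 100 kb or more it was 3 in the members and 1 in all genes. With a score of at least 5, 19 members (40.4%) had a summit in the body, against 27.6% of all genes. Without the 1 kb around every TSS, 17 members (36.2%) had one, against 25.4%. Pooled over genes, the members had 84 summits, or 0.263 per 10 kb of gene body, and all genes had 0.198. With a score of at least 5 these values were 0.094 and 0.0903, and with at least 10 they were 0.0439 and 0.037, so that most of the difference lay in summits with low scores. Kdm6b, Kmt2d and Kdm4b together held 30 of the 84. Of the 84, 63 lay in introns, 14 in coding exons, 6 in 5′ UTRs and 1 in a 3′ UTR. There were 56 more than 1 kb from a TSS of the member, in 18 genes, and their median score of 3.75 was below the 9.21 of the members' promoter summits. Only 7 of the 56 had a score of at least 10. The placement of the 84 and the scores of the 56 were counted in the members only. Without the values of all genes they cannot be read as particular to the members. Between the number of summits in the body and log10 of the span, Pearson's r was -0.0308 across the 47 members and 0.230 across all genes, which share the list and its depth and are not independent replicates.

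**Figure D5:**
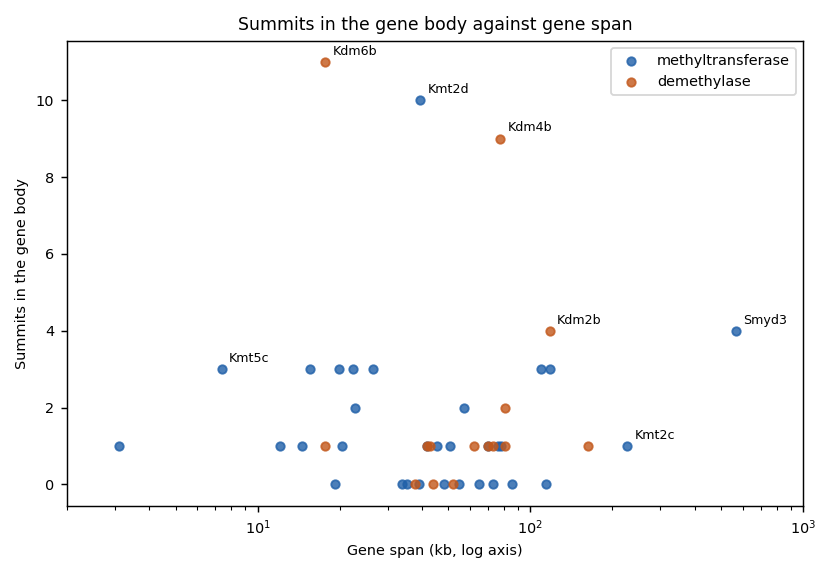
Number of summits in the gene body against gene span (kb, log axis) for the 47 members, with methyltransferases in blue and demethylases in orange. Kdm6b, Kmt2d and Kdm4b, with 11, 10 and 9 summits, stand above genes of the same length, and Smyd3 has 4 summits in 566 kb.

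A promoter summit cannot always be given to a single gene. At 6 members the TSS of another gene lay within 1 kb, and all 6 had a promoter summit. Of the 41 without such a neighbour, 32 (78.0%) had one. Among all genes these shares were 88.4% and 42.0%. Kdm1b starts 282 bp from Tpmt, Kdm5a 270 bp from Ccdc77, Setd3 454 bp from Ccnk, Kdm4d 137 bp from Cwc15 and Smyd4 50 bp from Rpa1, all of which run in the opposite direction. Setdb2 shares its TSS with the gene model Gm45935 on the same strand. The summit of Kdm4d lay 46 bp from the TSS of Cwc15 and 91 bp from its own, and it was the only member whose promoter summit lay nearer to another gene.

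Motif letters were counted in the 201 bases around the highest promoter summit and in the 250 bases before to 50 after each TSS. CCAAT, the letters of the NF-Y box, was found at 13 of 38 member summits (34.2%) and at 30.0% of all genes' summits. The GC box GGGCGG of SP and KLF factors was found at 16 (42.1%, against 49%), the E-box CACGTG at 4 (10.5%, against 6.95%) and the ETS letters CCGGAAG at 3 (7.89%, against 14.1%). TGCGCA, the core of the NRF1 site, was found at 1 summit (2.63%), against 11.1%. In the windows at the 61 TSSs, GGGCGG was found at 40 (65.6%, against 48.0% of all TSSs), TGCGCA at 12 (19.7%, against 9.73%) and CCAAT at 23 (37.7%, against 37.4%). CCGGAAG was found at 8 TSSs (13.1%, against 11.6%) and CACGTG at 8 (13.1%, against 8.01%). TATAAA was found at 4 TSSs (6.56%, against 12.2%) and at 1 summit (2.63%, against 2.47%). The estrogen-related receptor letters AAGGTCA were found at 0 of 61 TSSs, against 3.85%, and at 1 summit, that of Nsd1 (2.63%, against 2.47%). The 0 allows a share of up to 4.92% if the 61 windows are taken as independent. Some windows of the same gene overlap, so the true limit is higher. TGACGT (cAMP response element) and AAGATGG (YY1) were found at 6 TSSs each (9.84%, against 8.70% and 6.27%) and at 1 summit each (2.63%, against 8.78% and 4.63%). CACGTG and TGCGCA read the same on both strands, and no test was made of these shares.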

How the data were processed

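The ATAC-seq reads of 4 BAT libraries, 2 per genotype, were aligned to mm10 with BWA-backtrack by the authors. The submitters' processing notes name cutadapt 1.2.1 and MACS2 2.1.1. Peaks were kept by the authors at q-values up to 0.05 and fold enrichments from 2.0. The deposited score is the −log10 of the q-value at each summit, in 1 list for 4 libraries. Peak calling used the ATAC mode of MACS2, and the read shift or extension set in that mode and the treatment of duplicate and mitochondrial reads are not given in the sources used here. RNA-seq libraries of both genotypes were not analysed here.

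Summits were placed against curated RefSeq mRNAs (NM accessions) of GRCm38.p6, which has the coordinates of mm10. The promoter window was 1000 bp on each side of a TSS and the wider window 10000 bp. The gene body ran from the first to the last base of the curated mRNAs. Counts and medians are descriptions beside those of all autosomal genes, and no test was made, since the list has no value per library. The alternatives were score minimums of 2, 5 and 10, merging of summits closer than 500 bp, and other promoter windows, transcript sets, gene bodies and nearest-gene rules. Genes were named when they had no promoter summit, were among the 10 highest promoter scores or the 5 with most summits in the body or within 10 kb, had start sites that differed, or are known from brown fat, and otherwise with their substrate group. The members and lists were chosen with earlier results of these data known. Placement was tested on simulated data, where 600 of 600 genes and 200 of 200 distances came out right. Figures were drawn with matplotlib 3.10.9, and all values came from scripts in Python 3.11.15 (pandas 2.3.3, scipy 1.17.1, numpy 2.4.6).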

Additional observations from a re-analysis of the deposited data

How the results depend on the processing

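No paired analysis was possible because no library has values of its own here, and no replicate could be left out. Of 57 recomputed values, 46 stayed within 1.5 times the reported count or within the interval of the reported median, and 11 did not. With a score of at least 10, 21 members kept a promoter summit, 12 (25.5%, against 14.3% of all genes) had a summit in the body, the bodies held 14 summits, the median highest promoter score was 23.1, and 2 of the 13 substrate groups, in place of 6, had a promoter summit at every member. With a score of at least 5, 19 members (40.4%, against 27.6%) had a summit in the body and the bodies held 30. Without the 1 kb around every TSS, 17 members (36.2%, against 25.4%) and 54 summits were left. These settings leave fewer summits or less sequence by construction. The window from 1 kb upstream to 100 bp downstream left 2 groups complete and 26 members with a promoter summit. Adding predicted mRNAs moved the median distance to 180 bp. The share of members with a promoter summit was above that of all genes under each of the 10 alternatives, from 44.7% against 24.5% to 85.1% against 51.8%. The longest curated mRNA alone gave 35 members, without Kdm2b, Kdm4c and Nsd3. The unknown depth and the unknown control of the peak calls limit every statement on a weak or missing summit: a summit not in the list was not called, which does not show closed chromatin.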
